A study of Mus musculus with 9 samples.

Results

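The 10 genes described here encode transcription factors and chromatin proteins that set and keep the identity of photoreceptors: *Crx*, *Otx2*, *Nrl*, *Nr2e3*, *Samd7*, *Samd11*, *Rxrg*, *Thrb*, *Prdm1* and *Rorb*. They were chosen by name from the 37725 genes counted in 31089 retinal cells, and their RNA was summed per mouse in rods, cones, bipolar cells and other cells. The cells came from the retinas of 4 control mice (S01 to S04) and 5 double knockout (dKO) mice (S05 to S09), labelled 6 months. All mice carried the same alleles, RPE65-ERT2-Cre with floxed miR-211 and floxed miR-204. The dKO mice were injected with tamoxifen at 75 mg/kg on 5 days from postnatal day 28. The control mice are labelled as given the corn oil vehicle, so deletion and tamoxifen itself cannot be told apart in these data. The paper instead names Cre-negative mice given tamoxifen as controls. It reports that their retinal phenotypes did not differ from those of Cre-positive mice given vehicle. It also reports no phenotype after tamoxifen in Cre mice without the floxed alleles. The Cre is driven by the *Rpe65* promoter, which is active in the retinal pigment epithelium (RPE), so the deletion was aimed at the RPE and not at the photoreceptors compared here. Both retinas of a mouse were processed as 1 sample, and the labels of S06 and S07 share an animal number, so these may not be separate animals. The deleted microRNAs were not examined here. The paper states that most single-cell preparations select polyA RNA and so miss many microRNAs.

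Rods and cones arise from shared precursors. OTX2 commits a precursor to the photoreceptor lineage and turns on *Crx*, whose product drives genes of both photoreceptor types. NRL, with its target NR2E3, directs the rod fate and keeps cone genes silent, and a photoreceptor without NRL develops like an S-cone. In cones the thyroid hormone receptor THRB and its partner RXRG favour the M-opsin over the S-opsin. RORB acts upstream of NRL, PRDM1 (also called BLIMP1) keeps young photoreceptors from becoming bipolar cells, and SAMD7 and SAMD11 belong to a Polycomb repressive complex of rods that silences genes foreign to the rod. OTX2 also stays on in bipolar cells and the RPE.

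Cells were assigned to types by the share of marker RNA among their UMIs (unique molecular identifiers, which tag each captured RNA once), with none of the 10 genes among the markers. This gave 15760 rods with a median of 4718 UMIs, 2298 cones with 12362, 3503 bipolar cells with 14566 and 6479 other cells with 19707. The other cells were 2006 Müller glia, 3016 amacrine, 504 ganglion, 220 horizontal, 321 RPE, 78 microglial, 164 pericyte and 170 endothelial cells, while 2748 cells met no gate and 301 met more than 1. Between 15079143 and 66528160 UMIs were counted per mouse, and no barcode was shared by different mice. S04, S05 and S07 stood apart, with 71.4 to 85.9% of their cells gated as rods against 31.9 to 45.5% in the other mice, and with 47, 74 and 136 bipolar cells against 425 to 612. Markers of the wrong photoreceptor were present in the gated cells, since the summed rod markers reached 18868 CPM (UMIs of a gene per 1000000 UMIs of the type) in rods and 3627 CPM in cones, and the summed cone markers 13409 CPM in cones and 95.5 CPM in rods. Results that rest on S04, S05 and S07 are therefore given with and without them, and each gene is set beside the rod markers where this bears on it.

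Before the levels, the stretches of DNA upstream of 4 of the genes are shown, because *Crx* had similar levels in both photoreceptor types, *Nrl* was highest in rods, and *Samd7* and *Samd11* lay between these patterns. Each line gives the 250 bases before the RefSeq start site in the GRCm38.p6 build, from 5′ to 3′ on the strand of the gene. Capitals mark matches, on either strand, to 2 motifs that do not overlap each other. The first is TAATCC, the core motif of the homeodomain proteins CRX and OTX2. Its matches on the opposite strand read GGATTA. The other is TGCTGA, a half-site of NRL.
Crx, chr7:15879956-15880205, minus strand: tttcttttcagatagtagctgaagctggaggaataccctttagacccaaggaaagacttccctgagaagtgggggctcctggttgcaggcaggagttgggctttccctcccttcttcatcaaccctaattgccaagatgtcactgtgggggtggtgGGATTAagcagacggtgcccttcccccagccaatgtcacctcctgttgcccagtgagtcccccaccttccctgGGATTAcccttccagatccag
Nrl, chr14:55524253-55524502, minus strand: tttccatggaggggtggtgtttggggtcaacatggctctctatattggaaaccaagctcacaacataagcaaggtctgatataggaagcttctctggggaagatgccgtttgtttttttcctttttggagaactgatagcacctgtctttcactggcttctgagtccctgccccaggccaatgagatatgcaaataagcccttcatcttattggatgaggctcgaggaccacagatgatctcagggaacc
Samd7, chr3:30746043-30746292, plus strand: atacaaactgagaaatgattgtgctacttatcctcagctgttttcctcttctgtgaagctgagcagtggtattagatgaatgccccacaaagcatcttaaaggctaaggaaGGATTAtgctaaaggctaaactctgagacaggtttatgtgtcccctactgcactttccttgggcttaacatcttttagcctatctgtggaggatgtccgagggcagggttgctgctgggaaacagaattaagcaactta
Samd11, chr4:156255343-156255592, minus strand: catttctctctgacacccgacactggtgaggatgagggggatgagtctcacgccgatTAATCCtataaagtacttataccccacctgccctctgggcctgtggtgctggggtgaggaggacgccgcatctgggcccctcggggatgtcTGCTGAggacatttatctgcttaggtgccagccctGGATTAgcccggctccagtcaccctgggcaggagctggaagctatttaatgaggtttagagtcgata

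The *Crx* window held 2 copies of the CRX and OTX2 motif, starting 94 and 21 bases before the start site, and the *Nrl* window held none of the motifs searched. The *Samd7* window held 1 copy of the CRX and OTX2 motif at 139 bases. The *Samd11* window held 2 copies, at 193 and 67 bases, with an NRL half-site between them at 102 bases. Of the 32851 mouse promoter windows of this length, 6.25% held the CRX and OTX2 motif and 16.1% the NRL half-site on either strand. A nuclear receptor half-site, AGGTCA, was also searched on either strand, stood in 14.0% of all windows, and was absent from these 4. Across the 16 windows of all 10 members, the remaining matches were a CRX and OTX2 motif in *Thrb* (46 bases) and *Otx2* (211 bases), an NRL half-site in *Rorb* (77 bases) and *Otx2* (24 bases), and a nuclear receptor half-site in *Thrb* (184 bases) and *Rxrg* (88 bases), while *Nr2e3* and *Prdm1* had none. A match is a run of letters and not a measured binding site.

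Crx, the homeodomain factor of both photoreceptor types, did not differ between rods and cones beyond the spread over mice. Its RNA in rods was lowest at 591, median 615 and highest at 684 CPM over the 9 mice, and in cones lowest at 537, median 633 and highest at 711 CPM. The ranges overlapped almost fully. The rods against cones log2 fold change was 0.01 (SE 0.05) with an adjusted p of 0.938 (edgeR's quasi-likelihood test, the mouse as a block, p adjusted by Benjamini-Hochberg over all genes tested, as for every adjusted p that follows), and its sign turned without S04, S05 and S07 (-0.05, adjusted p = 0.250). Bipolar cells held 126 to 182 CPM of *Crx*, below every rod and cone sample, and rods exceeded them 3.43-fold (log2 1.78, SE 0.06, adjusted p = 1.75e-13). This was 27.3% of the rod level of the same mouse at the median (20.9 to 29.5%), whereas *Gnat1*, the rod transducin, stood at 2.55% (1.80 to 3.15%) in the same bipolar cells. In the 8 types of other cells mean *Crx* levels were between 6.96 and 25.1 CPM, and their sum was 31.8-fold below rods (log2 4.99, SE 0.17).

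Otx2, the factor that starts the photoreceptor programme, ran in the opposite order, with its highest levels outside the photoreceptors. RPE cells had 403 ± 58 CPM (SD, n = 6 mice with at least 10 such cells), cone bipolar cells 275 ± 26 and rod bipolar cells 275 ± 26 (n = 9), rods 206 ± 21 and cones 135 ± 14 CPM. The RPE and the cones did not overlap their neighbours in this order, while the 2 bipolar classes overlapped each other and the lowest cone bipolar sample, at 220 CPM, lay within the range of rods. Rods had 1.52-fold more *Otx2* than cones (log2 0.61, SE 0.04, adjusted p = 2.95e-08) and 1.48-fold less than bipolar cells (log2 -0.56, SE 0.05, adjusted p = 8.19e-08). Every remaining type averaged under 10 CPM. The gene overlaps *Otx2os1*, which is transcribed from the opposite strand, and whether strand was used in counting is not given in the sources used here, so the RNAs cannot be told apart. *Otx2os1* had 1356 ± 91 CPM in rods, 1357 ± 101 in cones and 3163 ± 216 in bipolar cells (SD, n = 9), so its means in rods and cones were close where those of *Otx2* were apart.

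**Figure D1:**
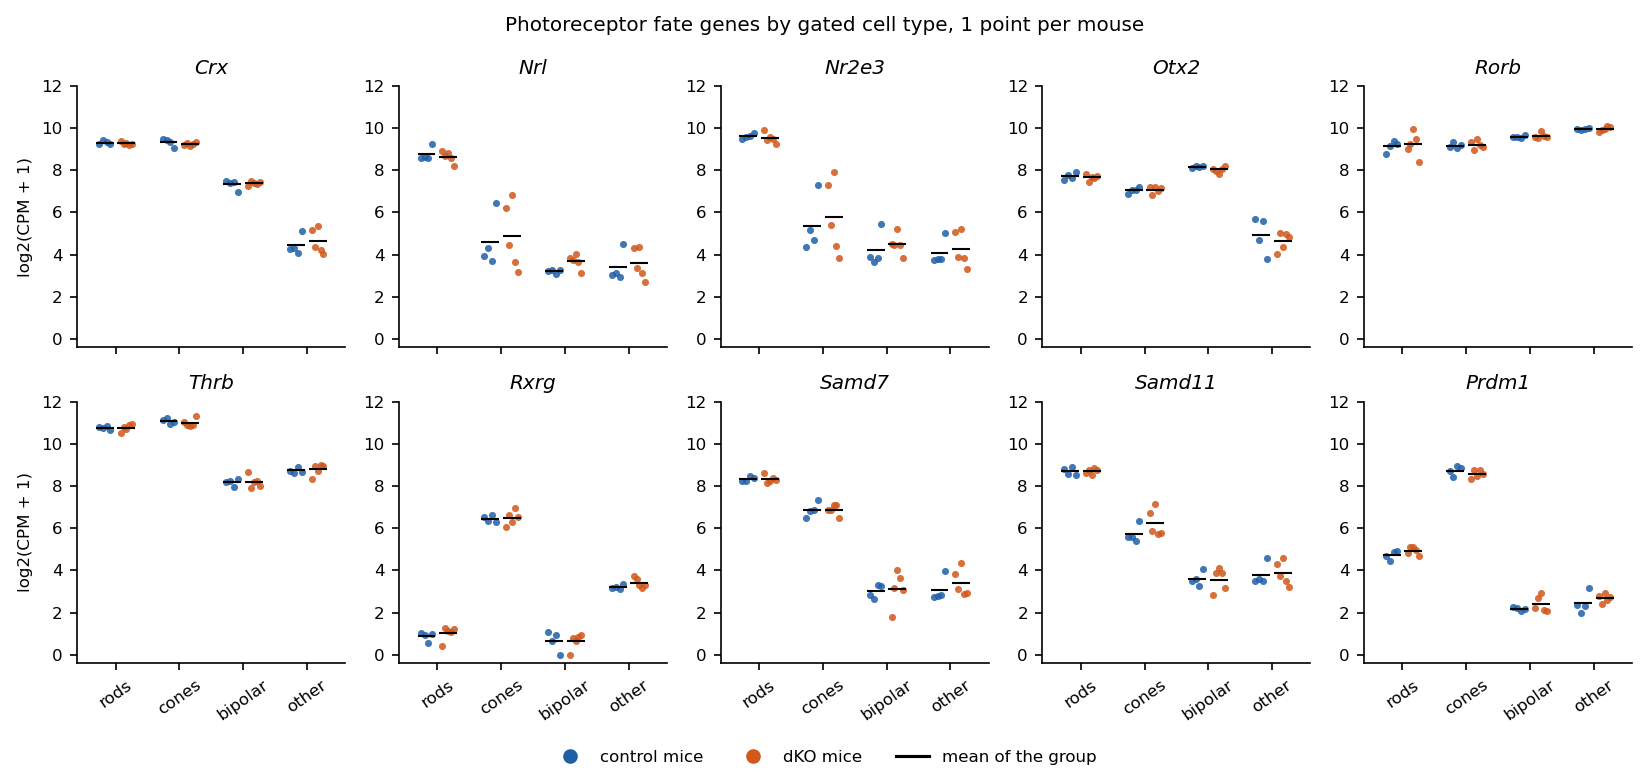
Each panel plots 1 gene as log2(CPM + 1) on the vertical axis in rods, cones, bipolar and other cells, with 1 point per mouse and a line at the group mean. *Crx* and *Rorb* have similar means in rods and cones, *Rxrg* and *Prdm1* peak in cones, *Nrl*, *Nr2e3*, *Samd7* and *Samd11* peak in rods, and control and dKO points overlap in every panel and type.

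Nrl, the leucine zipper factor that specifies rods, had rod levels of 378, 394, 378 and 617 CPM in the controls, S01 to S04 in order, and of 488, 415, 450.1, 386 and 299 CPM in the dKO mice, S05 to S09 in order. In cones of the same mice it had 14.4, 19.1, 12.0 and 85.1 CPM in control mice and 74.3, 21.2, 112, 11.4 and 8.01 CPM in dKO mice. Cones were below rods in every mouse, and the 3 cone samples above 70 CPM were S04, S05 and S07, the mice with the highest share of rods among their cells. The rods against cones difference was 14.8-fold (log2 3.88, SE 0.33, adjusted p = 3.98e-07), and it widened to a log2 of 4.71 without S04, S05 and S07 and to 5.79 under stricter gates.

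Nr2e3, the orphan nuclear receptor downstream of NRL, followed the same pattern. Its lowest, median and highest levels were 608, 764 and 975 CPM in rods and 13.5, 34.7 and 240 CPM in cones, again with S05, S04 and S07 as the highest cone samples at 156, 157 and 240 CPM. The difference was 15.1-fold (log2 3.91, SE 0.41, adjusted p = 2.51e-06), with a log2 of 4.79 without these 3 mice and 6.08 under stricter gates.

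In cones both genes lay in the range of 3 of the 4 rod markers set beside them, and far below the fourth, *Sag*. As percent of the rod level in the same mouse, the cone level of *Nrl* had a median of 4.84% (2.68 to 24.8%) and that of *Nr2e3* a median of 4.54% (2.23 to 31.0%). The rod transducin *Gnat1* gave 3.69% (3.29 to 21.2%), the rod phosphodiesterase subunit *Pde6b* 5.21% (2.97 to 31.1%) and the rod channel subunit *Cnga1* 4.69% (2.45 to 30.4%). *Sag*, the rod arrestin, stood apart at 57.7% (49.1 to 65.9%). The other 5 genes were highest in S07, with S04 and S05 next. The cones against bipolar difference was 2.03-fold for *Nrl* (log2 1.02, SE 0.28, adjusted p = 0.00551) and 2.12-fold for *Nr2e3* (log2 1.08, SE 0.27, adjusted p = 0.00273). It fell to log2 0.44 and 0.55 without S04, S05 and S07 and was lost under stricter gates, at 0.04 (adjusted p = 0.869) for *Nrl* and -0.02 (adjusted p = 0.913) for *Nr2e3*. The part of free rod RNA or of rods caught with cones in these values was not tested.

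**Figure D2:**
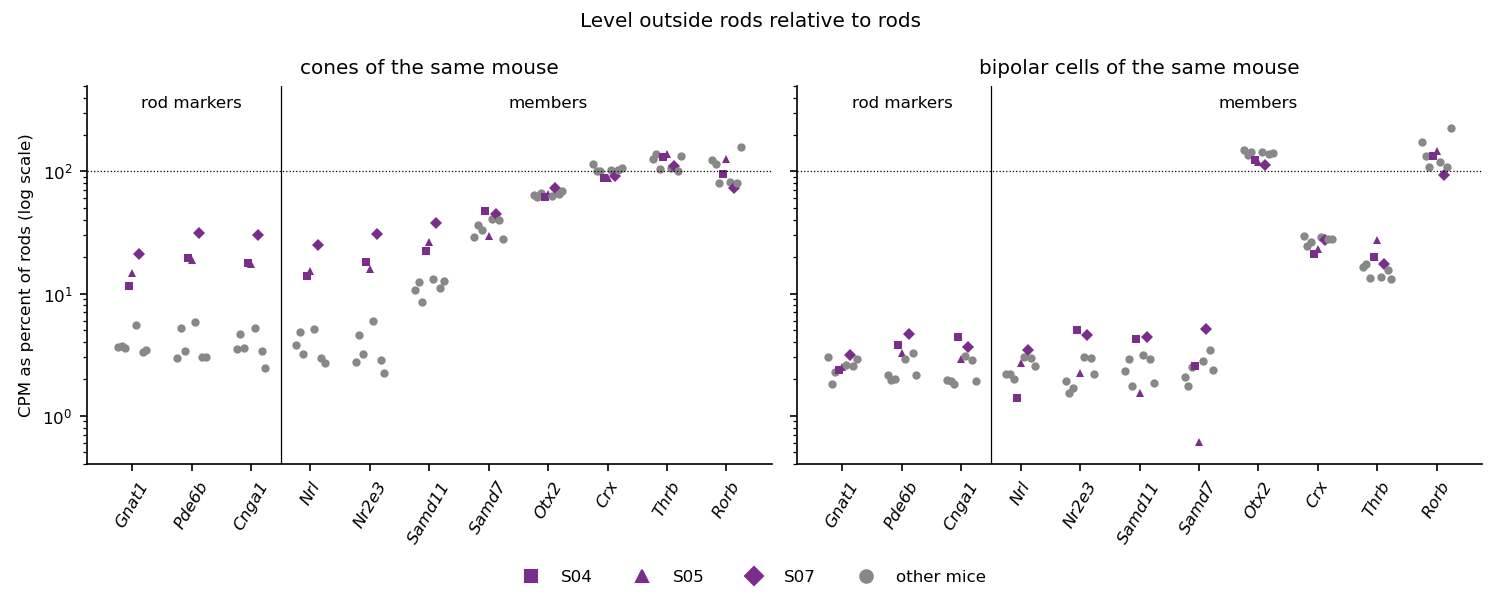
The level of each gene in cones (left) and bipolar cells (right) is plotted as percent of the level in rods of the same mouse on a log axis, with 1 point per mouse and S04, S05 and S07 as separate symbols. In cones *Nrl* and *Nr2e3* spread over the range of *Gnat1*, *Pde6b* and *Cnga1* on the left, with S07 at 24.8 and 31.0%, while *Samd7* stays between 28.1 and 47.8% in all mice and *Crx* lies near 100%.

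Samd7 and Samd11, the sterile alpha motif proteins of the rod Polycomb complex, were highest in rods but differed from each other in cones. *Samd7* had 299, 302, 354 and 338 CPM in rods of control mice and 396, 284, 301, 334 and 312 CPM in rods of dKO mice. Its cone levels were 87.2, 110, 116 and 161 CPM in control mice and 117, 115, 134, 134 and 87.9 CPM in dKO mice. Cones lay below rods in all 9 mice, and no mouse stood far from the rest. Cones held a median of 36.4% of the rod level (28.1 to 47.8%), above *Gnat1*, *Pde6b* and *Cnga1* and below *Sag* in each of the 9 mice, and rods exceeded cones 2.77-fold (log2 1.47, SE 0.08, adjusted p = 6.57e-09). Bipolar cells had 2.40 to 15.4 CPM, 12.5-fold below cones (log2 3.64, SE 0.12, adjusted p = 1.05e-11) and 35.7-fold below rods.

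*Samd11* had 418 ± 43 CPM in rods and 69.2 ± 33.0 CPM in cones (SD, n = 9). Its cone levels were 47.5, 46.6, 41.2 and 81.4 CPM in control mice and 103, 57.8, 140, 51.2 and 53.9 CPM in dKO mice, and the 3 highest were S04, S05 and S07, as for *Nrl*. Rods exceeded cones 6.52-fold (log2 2.71, SE 0.20, adjusted p = 1.01e-07), with a log2 of 3.15 without these 3 mice and 3.50 under stricter gates. The cone level was a median of 12.7% of the rod level (8.55 to 37.5%), above those of *Gnat1*, *Pde6b* and *Cnga1* and below that of *Sag* in each mouse, and the cones against bipolar difference of 4.71-fold (log2 2.23, SE 0.14) held without these mice (2.04) and under stricter gates (2.32). Among other cells, ganglion cells had the highest mean, at 19.9 ± 6.2 CPM (SD, n = 8). *Samd7* overlaps an antisense gene, *Gm33590*, and *Samd11* overlaps *Noc2l*, so shared reads there cannot be told apart either.

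Rxrg, the retinoid X receptor of cones, had the largest rods against cones difference of the 10 genes. Cones had 91.6, 81.0, 97.4 and 77.7 CPM in control mice and 65.3, 96.4, 78.5, 124 and 90.1 CPM in dKO mice, whereas rods had between 0.321 and 1.41 CPM, from 100 UMIs in all. No rod sample came near a cone sample. The difference was 84.7-fold in favour of cones (log2 -6.40, SE 0.12, adjusted p = 2.47e-13), and cones exceeded bipolar cells 104-fold (log2 6.70, SE 0.12, adjusted p = 8.81e-14). Ganglion cells came next with 27.3 ± 4.0 CPM (SD, n = 8), outside the range of every other type, and the remaining 10 types averaged at most 6.26 CPM.

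Thrb, the thyroid hormone receptor that acts with RXRG, was in contrast high in both photoreceptor types. Cones had a lowest, median and highest level of 1840, 2068 and 2568 CPM and rods of 1481, 1785 and 1937 CPM, and these ranges overlapped between mice. Within mice cones were higher, 1.20-fold (log2 -0.26 for rods against cones, SE 0.06, adjusted p = 0.00156), with 101 to 140% of the rod level in each of the 9 mice. Both exceeded bipolar cells, which had 243 to 402 CPM, by 5.49-fold in rods and 6.50-fold in cones. Müller glia followed the photoreceptors with 663 ± 89 CPM (SD, n = 9), and ranges of neighbouring types overlapped at each step from there down to the endothelial cells at 102 ± 17 CPM (n = 7). The gene spans 379.6 kb and overlaps 5 other annotated genes, and whether intronic reads were counted is not given in the sources used here. UMIs cannot be assigned to the cone-specific isoform of THRB from these gene totals.

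Prdm1, the zinc finger repressor that keeps photoreceptor precursors from the bipolar fate, was highest in cones. Cones had 413, 340, 499 and 467 CPM in control mice and 327, 434, 352, 435 and 381 CPM in dKO mice, against 20.8 to 33.9 CPM in rods. The types did not overlap, and cones were higher 14.4-fold (log2 -3.85 for rods against cones, SE 0.08, adjusted p = 9.18e-13). Rods in turn exceeded bipolar cells 6.34-fold (log2 2.67, SE 0.10, adjusted p = 1.71e-12), which had 3.20 to 6.60 CPM. Outside the neurons, pericytes had 55.1 ± 20.2 CPM (SD, n = 7), microglia 51.9 ± 43.7 (n = 4) and endothelial cells 23.7 ± 12.2 (n = 7), and the ranges of these types overlapped that of rods.

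Rorb, the retinoid-related orphan receptor upstream of NRL, was lower in photoreceptors than in several other neurons and glia. Horizontal cells led with 2033 ± 190 CPM (SD, n = 7), followed by Müller glia with 1584 ± 225, amacrine cells with 1115 ± 97 and rod bipolar cells with 983 ± 87 (n = 9). Rods had 608 ± 186 and cones 591 ± 71 CPM, with rods running from 340.1 CPM in S09 to 992 CPM in S07. Rods and cones had a log2 difference of -0.01 (SE 0.11, adjusted p = 0.959), and rods were below bipolar cells 1.47-fold (log2 -0.56, SE 0.11, adjusted p = 0.000267). Within mice the cone level was 73.0 to 160% of the rod level (median 95.7%), so the near-zero mean covers differences in both directions. Pericytes, microglia and endothelial cells averaged under 60 CPM.

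Set against all genes, the 10 split as follows. Of the 10 tested in rods against cones, 5 were higher in rods (*Nrl*, *Nr2e3*, *Samd7*, *Samd11* and *Otx2*) and 3 in cones (*Rxrg*, *Prdm1* and *Thrb*), where 27.1% and 30.6% of the 12947 genes tested were called in these directions. In rods against bipolar cells 7 of 9 were higher in rods and 2 in bipolar cells, against 37.4% and 36.9% of 13752 genes, and *Rxrg* fell below the count filter. In cones against bipolar cells 8 of 10 were higher in cones and 2 in bipolar cells, against 34.6% and 33% of 12523 genes, and *Nrl* and *Nr2e3* are 2 of these 8 and were lost under stricter gates. With library size in place of TMM scaling, the split over all genes in that comparison moved from 4336 higher and 4128 lower to 5565 and 3345. In rods against other cells 8 of 10 were higher in rods and 2 (*Rorb* and *Rxrg*) in other cells, against 43% and 43% of 15399 genes. The median log2 difference of the tested members was 0.31, 2.67, 2.00 and 4.00 in these 4 comparisons, and that of all genes -0.03, 0.03, 0.03 and 0.02. The p-values of comparisons between cell types and cone classes measure the spread, over these 9 mice, of the difference within a mouse. Those of dKO against control measure the spread between mice.

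At the level of single cells the picture was compared at equal depth, with each cell thinned to 2000 UMIs and 1242 shallower cells left out, 857 of them rods. *Crx* was then detected in 69.1% of rods (95% Wilson interval 68.3 to 69.8%) and 71.4% of cones (69.5 to 73.2%), against 29.6% of rod bipolar, 28.1% of cone bipolar cells and 3.91% of Müller glia, a type that should lack it. Before thinning these shares were 89.0, 98.8, 86.4, 83.2 and 22.2%, at median depths of 4718, 12362, 14566, 14565 and 14980 UMIs. *Nrl* was detected in 54.0% of rods and 4.32% of cones (3.56 to 5.23%), with 2.36% of rod bipolar cells and 1.96% of Müller glia as background, and unthinned in 78.3% and 18.4% of rods and cones. *Samd7* was in 37.5% of rods and 16.6% of cones, with 1.15% of Müller glia as background.

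*Prdm1* and *Rxrg* were detected mainly in cones, while *Thrb* was in 92.3% of rods and 96.1% of cones. *Prdm1* was detected in 48.4% of thinned cones (46.4 to 50.5%) and 4.80% of rods, against 0.788% of rod bipolar cells, and in 11.5% of microglia and 10.5% of pericytes. *Rxrg* was in 16.9% of cones and 0.174% of rods (0.119 to 0.256%), and in 0 of 2094 cone bipolar cells, whose interval reaches 0.183%. *Rxrg* was also detected in 5.63% of ganglion cells (3.93 to 8.02%). *Otx2* was in 32.7% of rods, 21.8% of cones, 41.6% of rod bipolar, 42.3% of cone bipolar and 51.2% of RPE cells, the order its levels had. These intervals cover counting error only and treat cells as separate draws, although cells of 1 mouse share their source.

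**Figure D3:**
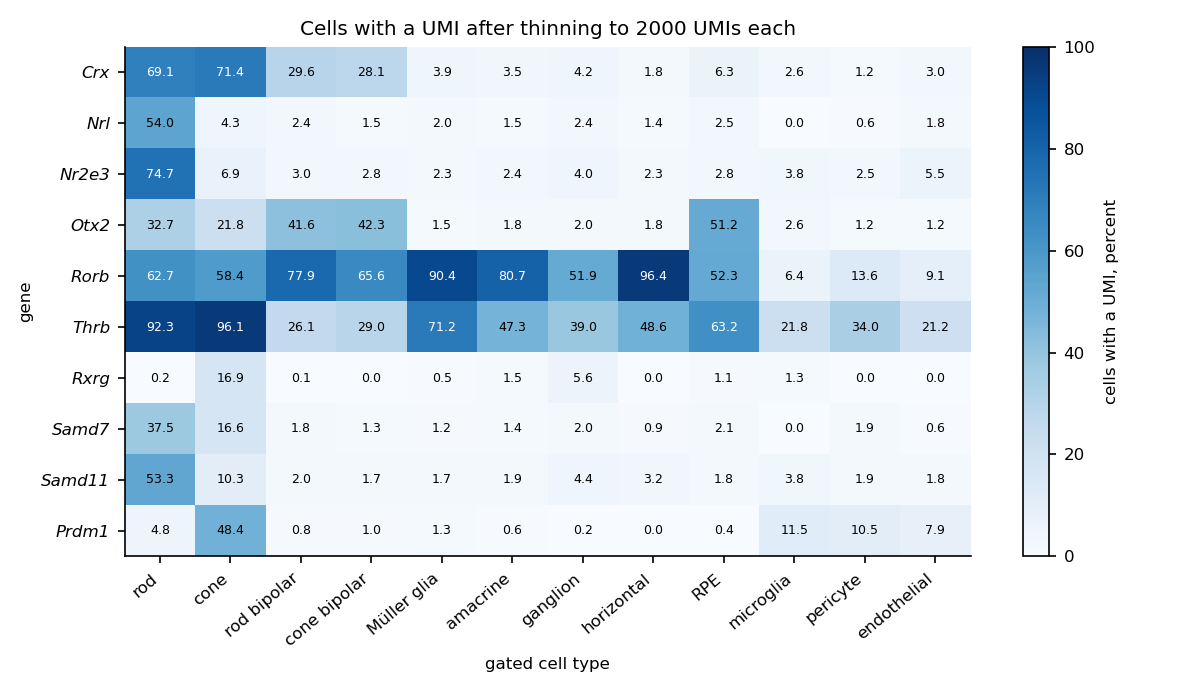
Rows are the 10 genes and columns the 12 gated cell types, and the shade and the printed value give the percent of cells with at least 1 UMI after thinning to 2000 UMIs each. *Thrb* is detected in over 90% of rods and cones, *Rorb* in most neurons and 90.4% of Müller glia, and *Rxrg* and *Prdm1* reach 16.9 and 48.4% in cones.

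Within cones the genes were next compared between cells with more M-opsin (*Opn1mw*) and cells with more S-opsin (*Opn1sw*) RNA. The division gave 1060 M-cones and 1238 S-cones, it is a cut through a range and not a pair of types, and 286 cones had between 40 and 60% of their opsin UMIs from *Opn1mw*. A cone had a median of 50 opsin UMIs. Of the 10 genes 3 were higher in M-cones and 2 in S-cones, where 9.58% of the 10049 genes tested were called in either direction.

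*Samd7* differed most. In S-cones it had 24.1, 50.5, 47.1 and 109 CPM in control mice and 90.1, 54.9, 97.7, 73.3 and 41.1 CPM in dKO mice, and in M-cones 153, 160, 190 and 205 CPM and 163, 187, 179, 203 and 139 CPM. M-cones were higher in 9 of 9 mice and the ranges did not overlap. The difference was 2.89-fold (log2 1.53, SE 0.15, adjusted p = 4.84e-06) and over the alternatives ran from 1.43 to 2.04. Along the share of *Opn1mw* among opsin UMIs the mean level was 48.5 ± 34.5 CPM in the 455 cones under 10%, 74.5 ± 26.8 in the 783 from 10 to 50%, 118 ± 27 in the 285 from 50 to 90% and 197 ± 28 in the 774 at 90% and over (SD, n = 9 mice). The level in S-cones was a median of 19.3% of that in rods (8.05 to 32.5%) and in M-cones 53.6% (41.0 to 65.9%), while *Gnat1* was at 3.96% (2.75 to 18.1%) and 4.48% (2.82 to 24.9%) in the same cells. In S-cones both genes had their highest percentages in S04, S05 and S07, at 32.2, 22.7 and 32.5% for *Samd7* and 10.3, 13.0 and 18.1% for *Gnat1*. The part of rod RNA in these *Samd7* values was not tested.

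*Thrb*, whose product activates the M-opsin gene in development, was 1.19-fold higher in M-cones (log2 0.26, SE 0.04, adjusted p = 0.00156, 9 of 9 mice). Its mean level was 1536 ± 192 CPM in cones under 10% *Opn1mw* and 2152 ± 255, 2257 ± 478 and 2349 ± 307 CPM in the following classes, so the step lay between the lowest class and the rest. *Rxrg* went the other way, 1.30-fold higher in S-cones (log2 -0.38, SE 0.07, adjusted p = 0.00375, 8 of 9 mice), with 110 ± 27 CPM in the class under 10% and 75.7 ± 15.1 at 90% and over. *Otx2* was 1.32-fold higher in S-cones (log2 -0.40, SE 0.06, adjusted p = 0.000517) in 9 of 9 mice, with 176 ± 32 CPM in the lowest class and 115 ± 23 in the highest. Its overlapping antisense gene *Otx2os1* was also higher in S-cones, by a log2 of -0.28 (SE 0.03, adjusted p = 5.10e-05).

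*Nr2e3* was called as higher in M-cones (log2 0.41, SE 0.12, adjusted p = 0.0400, 8 of 9 mice). This call was lost in 11 of 16 alternatives, and under stricter gates the value was -0.06 (adjusted p = 0.980). Beside it, the rod markers *Gnat1* and *Pde6b* had a log2 of 0.35 (SE 0.11, adjusted p = 0.0615) and 0.26 (SE 0.09, adjusted p = 0.0787) and *Sag* one of -0.35 (SE 0.04, adjusted p = 4.98e-05), and their part in it was not tested. *Sag* is among the rod markers that the stricter cone gate limits. It had 3013 ± 375 CPM in S-cones and 2381 ± 412 CPM in M-cones (SD, n = 9), and its part in which cones that gate kept was not tested. *Prdm1* had a log2 of 0.18 (SE 0.06, adjusted p = 0.0647, 8 of 9 mice), *Nrl* of 0.19 (adjusted p = 0.474) and *Samd11* of -0.17 (adjusted p = 0.396), and *Crx* and *Rorb* of -0.00 and -0.03.

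**Figure D4:**
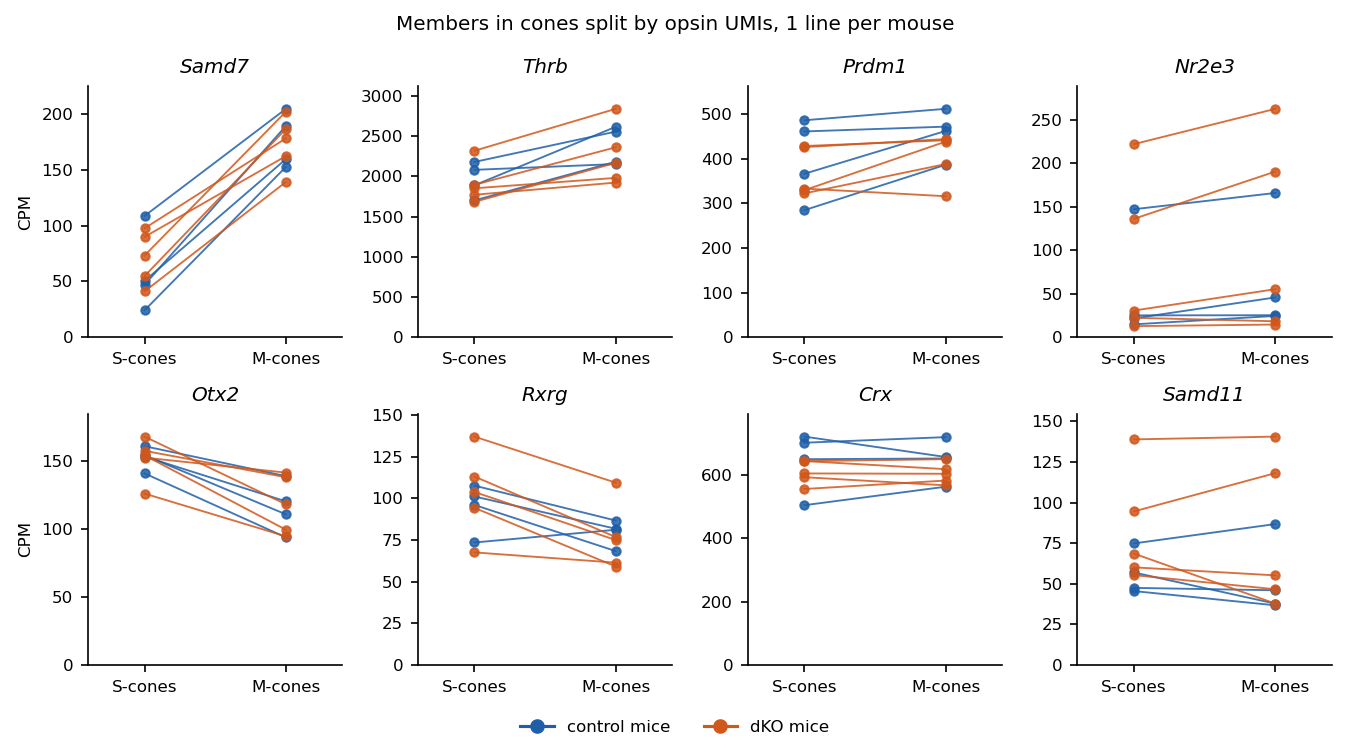
Each panel plots the CPM of 1 gene in S-cones and M-cones, with 1 line per mouse coloured by group. The *Samd7* lines rise in all 9 mice from 24.1 to 109 CPM in S-cones to 139 to 205 CPM in M-cones, the *Thrb* lines rise and the *Otx2* lines fall in all 9, and the *Crx* lines share no direction.

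Genes whose levels over the 12 cell types resembled a member most were found by the Pearson correlation of log2(CPM + 1) over 11437 genes, as a description of 12 types from shared libraries. For *Crx* these were *Slc17a7* (r = 0.983), *Cplx4* (0.979) and *Neurod1* (0.977), all active at photoreceptor and bipolar synapses or in their development. For *Nrl* they included *Gnat1* (0.991), for *Nr2e3* *Pde6a* (0.995) and *Gnat1* (0.983), for *Samd7* the rod phosphodiesterase subunit *Pde6g* (0.983) and for *Samd11* *Cep164* (0.986), *Guca1b* (0.985) and *Cnga1* (0.981). *Gnat1* and *Cnga1* are rod markers of the gates, which were not left out here, so the gates themselves shape their levels over the types. For *Otx2* they were *Otx2os1* (0.990) and the neighbouring models *Gm49153* (0.977) and *Gm49152* (0.973). The best match was weaker for *Rorb* (*Zfp799*, 0.947), *Thrb* (*Tmem106c*, 0.959), *Prdm1* (*Scaf11*, 0.947) and *Rxrg* (*C230014O12Rik*, 0.918).

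Lists of related genes, with members and gate markers left out, were counted in rods against cones, where 27.1% of all genes were called higher in rods and 30.6% higher in cones. Of 21 rod genes tested 17 were higher in rods and 3 in cones, with a median log2 of 1.63 against -0.03 over all genes, and examples were the disc rim proteins *Rom1* (1.88) and *Prph2* (1.63). Of 11 cone genes none was higher in rods and 10 were higher in cones, with a median of -6.24, led by the cone phosphodiesterase *Pde6c* (-7.08) and the cone channel subunit *Cnga3* (-7.07). Of 27 other retinal fate regulators 5 were higher in rods, such as *Mef2c* (1.97), and 10 in cones, such as *Sall3* (-6.18), *Six6* (-4.13) and *Lhx4* (-2.99).

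The partners of SAMD7 and SAMD11 and those of THRB and RXRG had calls in both directions, to be read against the same shares of all genes. Of 24 genes of Polycomb repressive complex 1 tested, 4 were higher in rods, such as *Yaf2* (0.44), and 9 in cones, such as *Cbx7* (-1.48), *Cbx6* (-0.84) and *Scmh1* (-0.68). Of 20 thyroid hormone, retinoid and related nuclear receptor genes, 8 were higher in rods, such as the coactivator *Ncoa2* (0.84), and 8 in cones, such as the thyroid hormone transporter *Slc16a10* (-3.10) and *Rora* (-1.47). Against bipolar cells, rods had 6 of 24 Polycomb genes higher and 15 lower and 7 of 22 receptor genes higher and 11 lower, where 37.4% of all genes were called higher and 36.9% lower.

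Between M- and S-cones fewer genes of any kind were called, 9.58% of all genes. Of 22 Polycomb genes none was called and 4 had an unadjusted p under 0.05, and with this share of all genes the count is no result about the list. Of 17 receptor genes 1 was called, *Nr2f2* (COUP-TFII), higher in M-cones with a log2 of 2.60 (SE 0.30, adjusted p = 3.82e-05). Of 14 cone genes 1 was higher in M-cones (*Arr3*, cone arrestin, 0.53) and 6 in S-cones, among them *Ccdc136* (-2.23), *Kcne2* (-0.66) and *Gnb3* (-0.42). Of 20 fate regulators 5 were higher in M-cones, led by *Lhx4* (0.99), and 2 in S-cones, *Six6* (-0.53) and *Mef2d* (-0.20).

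The last question was whether deletion of the microRNAs in the RPE was accompanied by a change of these genes in the neural retina. No member was called between dKO and control mice in any type, and control and dKO ranges overlapped for each of the 10 genes in rods, cones, bipolar and other cells. The share of all genes with such overlap was not counted, so the overlap is no result about these 10. The share of all genes called by edgeR's quasi-likelihood test was 0% (of 13663 genes) in rods, 0% (of 11996) in cones, 0% (of 13899) in bipolar cells and 0% (of 18252) in other cells. With an unadjusted p under 0.05 there were 535, 213, 350 and 299 genes, and DESeq2 called 1, 1, 0 and 0, none of them a member.

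In rods the log2 fold changes of dKO against control ran from *Nrl* at -0.17 (SE 0.17) to *Prdm1* at 0.18 (SE 0.14), with all adjusted p at 0.998. *Crx* had 637 ± 36 CPM in control (SD, n = 4) and 618 ± 26 CPM in dKO rods (n = 5), a log2 of -0.08 (SE 0.06). *Nr2e3* had 781 ± 63 and 755 ± 137 CPM, *Samd7* 323 ± 27 and 325 ± 44 CPM and *Thrb* 1753 ± 98 and 1754 ± 186 CPM in control and dKO rods. *Rorb* had 571 ± 101 and 637 ± 243 CPM, a log2 of 0.12 (SE 0.24), the largest SE in rods. *Rxrg* had too few UMIs in rods and bipolar cells to be tested.

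In cones the largest differences were in the genes that followed the rod markers. *Nr2e3* had 59.1 ± 65.7 CPM in control and 94.3 ± 99.7 CPM in dKO cones (log2 0.70, SE 0.86), *Nrl* 32.6 ± 35.1 and 45.3 ± 45.7 CPM (0.53, SE 0.81) and *Samd11* 54.2 ± 18.3 and 81.2 ± 39.0 CPM (0.58, SE 0.32). *Gnat1* had a log2 of 0.64 (SE 0.91) in the same comparison. Without S04, S05 and S07 the values were -0.06, -0.14 and 0.28. For *Rxrg*, *Thrb* and *Prdm1*, the members higher in cones, the log2 values were 0.06 (SE 0.17), -0.09 (SE 0.12) and -0.17 (SE 0.14), with all adjusted p at 0.9999.

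In bipolar cells *Nrl* had 8.27 ± 0.53 CPM in control and 12.1 ± 2.8 CPM in dKO mice (log2 0.48, SE 0.20, unadjusted p = 0.0327, adjusted p = 0.9999). Under stricter gates this was 0.09 (SE 0.26), and *Sag*, *Pde6b* and *Gnat1* had log2 values of 0.40, 0.44 and 0.33 there, whose part in it was not tested. *Otx2* had 289 ± 12 and 263 ± 26 CPM (-0.14, SE 0.09) and *Crx* 162 ± 24 and 167 ± 10 CPM (0.01, SE 0.09). In the other cells *Otx2* had a log2 of -0.50 (SE 0.35), while these sums held 58, 48, 47 and 0 RPE cells in control mice and 3, 60, 8, 49 and 48 in dKO mice. Within RPE cells *Otx2* had 407 ± 6 CPM in control and 400 ± 91 CPM in dKO mice (SD, n = 3 each).

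**Figure D5:**
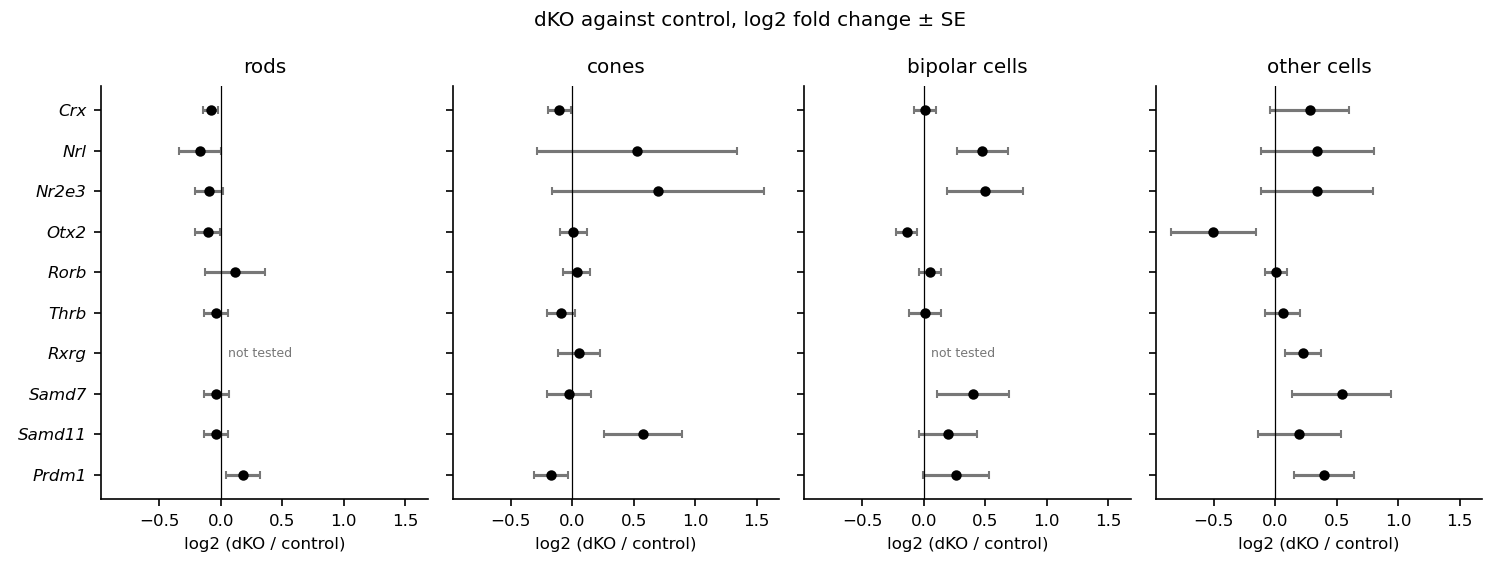
Points are the log2 fold change of dKO against control for each gene in rods, cones, bipolar and other cells, with bars of 1 SE, and *Rxrg* is marked as not tested in rods and bipolar cells. Bars are short for *Crx*, *Otx2* and *Thrb* in rods and long for *Nrl* and *Nr2e3* in cones, with SE of 0.81 and 0.86, and no point was called.

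The differences of the dKO effect between types were tested too. For rods against cones 0% of 14060 genes were called (446 with an unadjusted p under 0.05, 3 by DESeq2), and for rods against bipolar cells 0% of 15148 (615, and 2 by DESeq2), with none of the 10 and 9 members among them. *Prdm1* had an effect 0.36 higher in rods than in cones (SE 0.12, unadjusted p = 0.0115), *Nrl* 0.50 lower in rods than in bipolar cells (log2 -0.50, SE 0.15, unadjusted p = 0.00425) and *Nr2e3* 0.58 lower (log2 -0.58, SE 0.25, unadjusted p = 0.0356), each with an adjusted p above 0.999. All 5 related lists likewise had 0 genes called in each dKO comparison.

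The shares of the gated types were compared as well, and no difference passed the test. Rods made up 52.3 ± 22.7% of cells in control (SD, n = 4) and 51.6 ± 21.3% in dKO mice (n = 5, exact permutation test, two-sided, p = 0.841). Cones made up 8.14 ± 3.21% and 7.04 ± 1.86% (exact p = 0.524), bipolar cells 11.6 ± 6.8% and 10.3 ± 6.1% (exact p = 0.841) and other cells 19.8 ± 11.6% and 20.3 ± 12.3% (exact p = 0.857), with all 4 adjusted p at 0.857. S04, S05 and S07 are the 3 mice with the highest share of rods, 1 in the control and 2 in the dKO group. In the remaining mice rods made up 45.5, 41.2 and 36.5% of cells in control and 40.6, 31.9 and 36.2% in dKO mice. Leaving out 1 mouse moved the dKO minus control difference in rod share between -7.25 and 10.5 percentage points. The lowest exact permutation p of the rod share over the alternatives was 0.2. The means of rod shares thus depended on which mice were kept.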

How the data were processed

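The cells of 9 mouse retina samples were profiled with a split-pool combinatorial barcoding kit. The authors mapped the reads to GRCm39 with the kit's split-pipe software and deposited 1 table of raw UMI counts per gene and cell, with the mouse of each cell. Per the labels they used R 4.2.2 and Seurat 4.3.0. The table was used as deposited, with 31089 cells, 37725 genes and no removal of doublets or free RNA. The deposited cluster column repeats the barcoding well and gives no cell types.

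Cells were gated by marker UMIs per 10000, with at least 3 markers detected. Rods needed 64 with cone markers under 16, cones 32 with rod markers under 128, and bipolar cells 8 with rod markers under 32 and cone markers under 16. Stricter gates needed 4 markers and 100, 64 and 16. They also lowered the ceilings, to 4 for cone markers in rods and 32 for rod markers in cones. The rod markers limited in cones include *Sag*, which averaged 2708 ± 382 CPM in cones of the main gate (SD, n = 9 mice). In bipolar cells the ceilings were 8 for rod and 4 for cone markers. Gated types were summed per mouse where a mouse had at least 10 such cells. Counts were tested with edgeR 4.0.16 (R 4.3.3; TMM scaling, filterByExpr, quasi-likelihood test, Benjamini-Hochberg adjustment over all genes tested, called at 0.05), with the mouse as a block between cell types and between cone classes. The opsins were left out of the cone class test. SE was the absolute log2 fold change over the square root of F. Shares of cells were compared with exact two-sided permutation tests. Alternatives were DESeq2 1.42.0, library-size scaling, no count filter, stricter gates, S06 and S07 summed, no cells in the top 5% by UMIs, and mice left out. The fits were tested on simulated data. The text names all 10 members, from each related list at most 4 genes with the smallest p, for likeness the 3 genes with the highest correlation, and genes outside the lists where 5 or fewer were called. Members and lists were chosen with earlier results of these data known. Promoters are RefSeq's (GRCm38.p6), with 10 of 10 members matched, and gene coordinates were read from the GENCODE annotation of GRCm39. Some genes are not reported here.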

Additional observations from a re-analysis of the deposited data

Results flagged for a closer look

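In 12 of 80 groups of a gene, a cell type and a treatment, 1 mouse stood apart from the rest of its group by Dixon's test at 95%, which chance does in about 1 of 20 groups. Of these, 10 were in S04, the control mouse with 85.9% of its cells gated as rods. S04 had 617 CPM of *Nrl* in rods, where the other controls had 378 to 394 CPM. In its cones it had 85.1 CPM of *Nrl* (others 12.0 to 19.1), 157 CPM of *Nr2e3* (others 19.5 to 34.7) and 81.4 CPM of *Samd11* (others 41.2 to 47.5). In its bipolar cells, of which there were 47, *Nr2e3* had 43.2 CPM (others 11.7 to 13.7).

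In the other cells of S04, 65 in number, *Crx* had 34.0 CPM (others 15.7 to 18.8), *Nrl* 22.0 CPM (others 6.56 to 7.62) and *Nr2e3* 32.01 CPM (others 12.5 to 12.8). There *Samd7* had 14.7 CPM (others 5.72 to 6.20) and *Samd11* 22.7 CPM (others 10.1 to 10.9). The rod transducin *Gnat1* was also highest in the cones of S04 among controls, at 568 CPM against 58.6 to 93.1 CPM, and its part in these values was not tested.

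The remaining groups were dKO mice. S05 had 0.321 CPM of *Rxrg* in rods, where the others had 1.13 to 1.41 CPM, all from few UMIs. S07 had 930.5 CPM of *Rorb* in bipolar cells, where the others had 739.9 to 779 CPM.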

How the results depend on the processing

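Of 1695 fold changes of the members under alternatives, 1675 stayed called or stayed not called, 11 lost a call, 7 gained one and 2 called values turned direction. Of the 1675, 124 changed sign where neither value was called, *Nrl* and *Nr2e3* in dKO against control cones among them. The called values that turned were *Nr2e3* under stricter gates, at -0.025 in cones against bipolar cells and -0.061 in M- against S-cones. Neither was still called under these gates, and the cause was not tested. No gene was called between dKO and control mice in the main comparisons. DESeq2 called 1 gene in rods (*Sox30*) and 1 in cones (*Sel1l3*), and 3 and 2 genes in the differences of the effect between rods and cones and between rods and bipolar cells. In cones *Sel1l3* was also the 1 gene called without the count filter, without S04, S05 and S07 together, and under stricter gates, and in other cells *Gm48606* was the 1 gene called without these mice. Without the count filter 74 genes were called in bipolar cells, 118 in the difference between rods and cones (*Nr2e3* and *Samd11* among them) and 73 in that between rods and bipolar cells. Under stricter gates 452 genes were called between M- and S-cones, against 963. Leaving out 1 mouse gave 0 to 1 genes in rods (1 without S01) and 0 to 1 in cones (1 without S05). Library-size scaling moved the median of all genes by 0.13 in rods against bipolar cells, 0.15 in cones against bipolar cells and -0.16 in rods against other cells. No paired analysis was possible because replicate numbers 1 to 4 name control mice and 5 to 9 dKO mice, while comparisons between cell types had the mouse as a block. *Rxrg* had too few UMIs to pass the count filter in rods and bipolar cells, and results in bipolar and other cells of S04 and S05 rest on few cells.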
